A study of Homo sapiens with 32 samples.

Results

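The day 7 tumors are ZR-75-1 xenografts, tumors of a human mammary carcinoma line whose cells hold the estrogen receptor, grown in female nu/nu mice. All mice, controls included, carried a slow-release pellet of estradiol (E2), and the day 7 mice were given tamoxifen as well (2.5 mg, released over 60 days). Members were chosen by the array titles, which gave 8 of 32 arrays, or 4 of 16 tumors. The 4 tumors came from 3 mice, since replicates 3 and 4 grew in the same mouse. Each tumor was hybridized in both dye orientations to a cDNA array against 1 pool of xenografts from mice that received E2 only, taken on days 0, 1, 2 and 4. No control tumor of day 7 stands on these arrays, so tamoxifen and tumor age cannot be told apart in this comparison. The tumors of days 1 (4 tumors of 2 mice), 2 (2 of 2), 4 (4 of 3) and 14 (2 of 2) were treated alike and share the same pool. All are from 1 cell line in an immunodeficient host, whose mouse stroma stays in the RNA.

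The estrogen receptor is a transcription factor that E2 activates and that drives both a secretory program and the cell cycle in luminal breast cancer cells. Tamoxifen competes with E2 for the receptor and recruits corepressors in breast cells. Classical targets that E2 induces in such cells are the trefoil peptides, amphiregulin and several binding proteins of hormones and growth factors.

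Values are log2 ratios of tumor over pool, as 1 mean per dye-swap pair, and a gene was called where limma gave a Benjamini-Hochberg adjusted p under 0.05 over all probes. The files do not say which dye each channel holds, and the sign follows the authors' value table (channel 2 over channel 1 on forward arrays). If the channels were those of the sample labels, every sign in the text would turn. The scanner files of day 7 had a median signal between 3.00 and 6.38 times the local background, and 9 to 393 spots per array carried the mark 0 and were left out. The authors' table column for the forward array of replicate 4 ran against the other 7 day 7 columns over the named probes, with r between -0.619 and -0.176, whereas its scanner file gave r of at least 0.234 with each of them and was used.

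The ratios of the 4 tumors differed in width. Over the 333 probes that the study named, the SD of the log2 ratios was 0.410 in replicate 1, 0.841 in replicate 2, 0.465 in replicate 3 and 0.437 in replicate 4. Of these probes, 37 lay beyond 1 in either direction in replicate 2, against 4, 17 and 16 in replicates 1, 3 and 4. The 2 orientations of a tumor correlated over the named probes with r = 0.373, 0.896, 0.627 and 0.461 in replicates 1 to 4, and over all 9912 probes with r = -0.285, 0.244, -0.0919 and -0.162. Between tumors, r over the named probes ran from 0.537 (replicates 1 and 4) to 0.778 (replicates 2 and 4), and the pair from 1 mouse stood at 0.774. These correlations describe probes that share arrays and the pool, and probes are not replicates. Replicate 2 had the widest and most repeatable ratios, and replicate 1 the narrowest. The arrays of replicate 1 also had the lowest median signal over background of day 7 (3.00 to 3.84 over both channels), and the part of measurement in these widths was not tested.

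**Figure D1:**
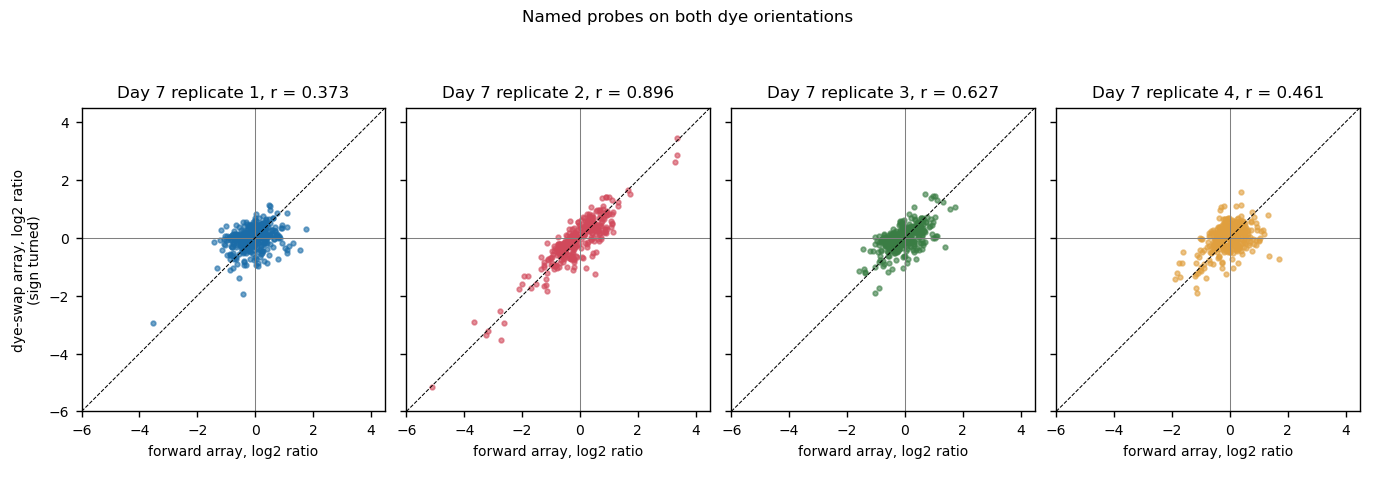
Log2 ratios of the named probes on the forward array (horizontal axis) and on the dye-swap array with its sign turned (vertical axis), 1 panel for each day 7 tumor, with the dashed line at equal values. The points of replicate 2 spread along that line (r = 0.896), while those of replicate 1 form a cloud around 0 (r = 0.373).

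Against the pool, 49 of 9912 probes were called lower at day 7 (0.494% of all probes) and 24 higher (0.242%), or 73 in all (0.736%). Without adjustment, 1144 probes had a p under 0.05. All 73 had the same sign in all 4 tumors, which held for 1141 probes on the lower side (11.5% of the 9889 measured in all 4) and for 1142 on the higher side (11.5%). Among the named probes, 34 were called lower and 16 higher. The study chose its named probes on these same arrays, so their share is not independent evidence, and nothing is read from it. With the brightest probe standing for each of 253 genes, 25 genes were called lower and 13 higher. In bulk tumors, fewer cells of a type and less RNA per cell cannot be told apart.

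Among the 38 genes called, replicate 2 had the largest ratio in 27 and replicate 1 the smallest in 21. The median ratio of the genes called lower was -0.53, -0.93, -0.71 and -0.91 in replicates 1 to 4, and that of the genes called higher was 0.43, 0.73, 0.46 and 0.46. Most calls needed every tumor, since leaving out 1 of the 4 left 11 to 19 probes called lower and 2 to 10 called higher. All days share 1 estimate of the spread, from which the array titled Day 4 replicate 4 dyeswap was left out. The reason was that its ratios of channel 2 over channel 1, with no sign turned, followed those of another tumor's forward array (r = 0.880). Against the forward array of its own tumor, r was 0.287. With the Day 4 replicate 4 dyeswap array used as labelled, 1 probe was called lower at day 7 and 0 higher. Without replicate 2, 6 of the 38 genes stayed past the threshold, namely SERPINA6, CLN8, TFF3, ATP5D, B4GALT1 and CLU.

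**Figure D2:**
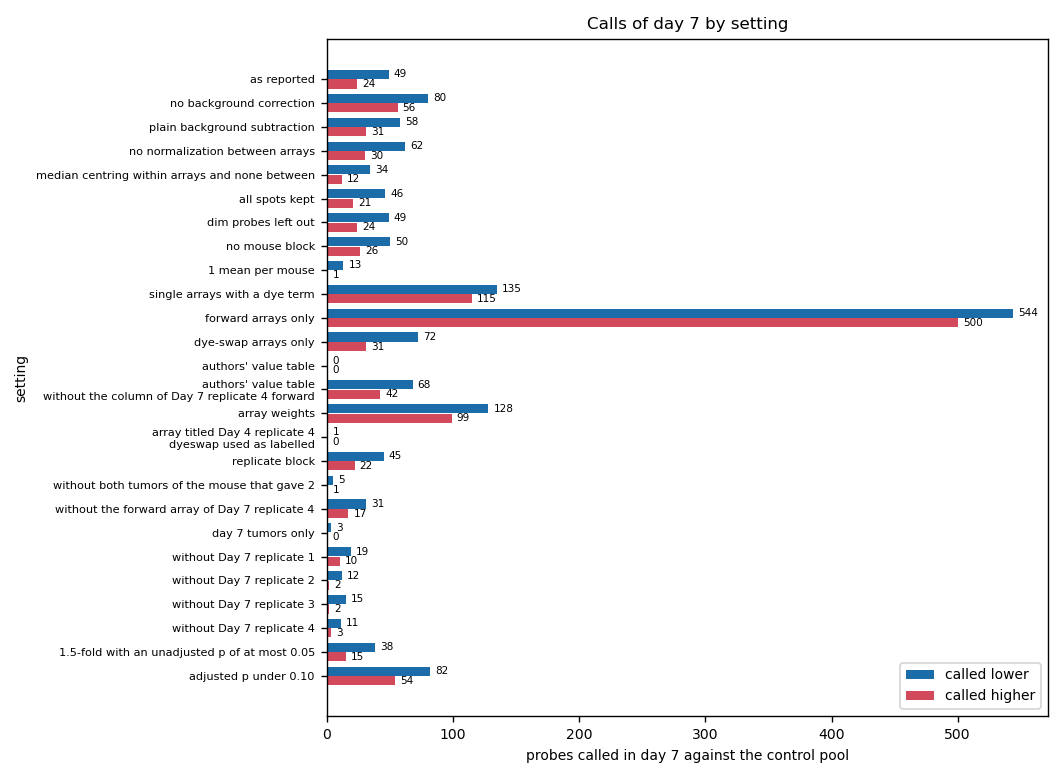
Number of probes (horizontal axis) called lower (blue) or higher (red) at day 7 against the pool, 1 pair of bars for each processing setting. The values as reported are 49 and 24, and the bars run from 0 with the authors' value table to 544 and 500 with forward arrays only.

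**Figure D3:**
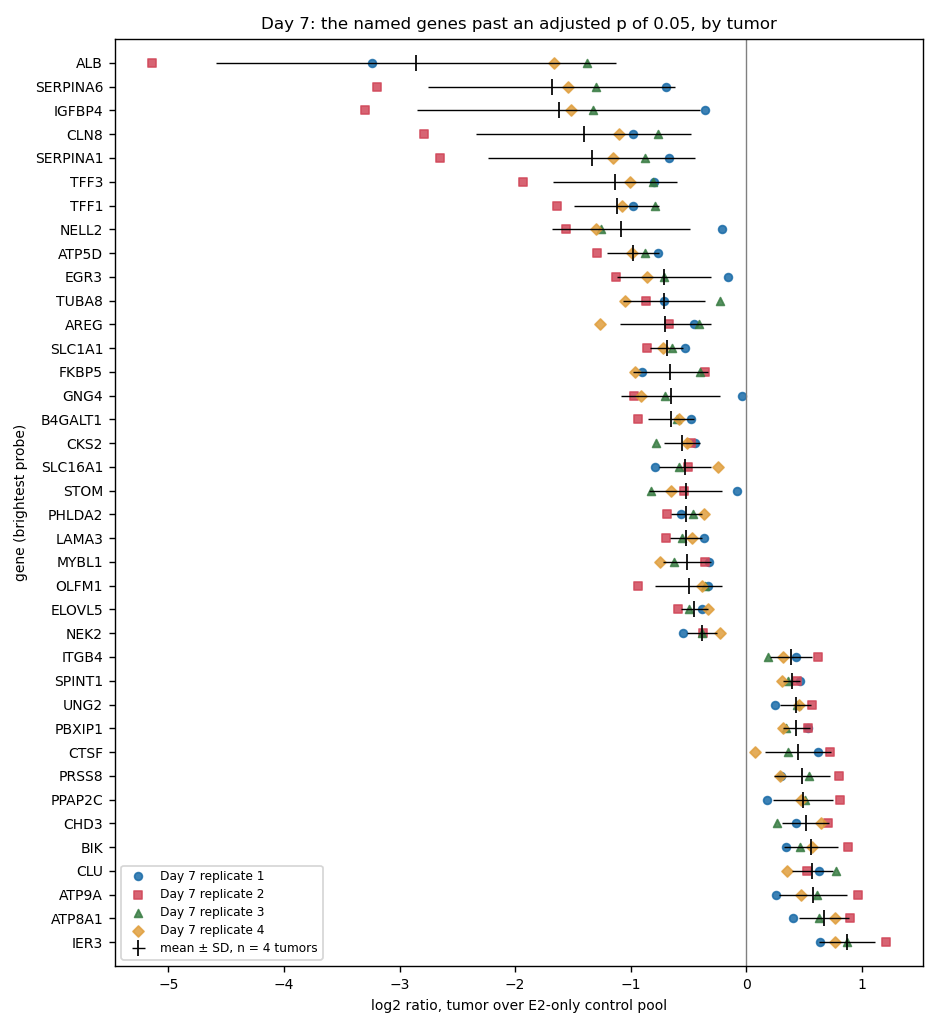
Log2 ratio over the E2-only pool (horizontal axis) of the 38 named genes called at day 7, 1 marker for each tumor, with black ticks and bars for the mean ± SD of 4 tumors. Replicate 2 (red squares) lies farthest from 0 in 27 genes, and ALB spans the widest range, from -5.14 to -1.38.

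Estrogen-induced secreted and signalling genes made up much of the lower side. Of 29 named genes on a list of 40 known E2-induced genes, 11 were called lower and 0 higher, with a median of -0.47. Over all probes 0.494% were called lower and the median was 0.00. Only named genes enter the count, and the study chose these on the same arrays, where 25 of 253 were called lower. The distance from the share over all probes is therefore no independent evidence. The same holds for every list below. Over all probes 0.242% were called higher, and 11.5% lay on each side of the pool in all 4 tumors. TFF3, a trefoil peptide that luminal cells secrete with mucus, stood at -0.80, -1.93, -0.81 and -1.01 in replicates 1 to 4. All 4 tumors were below the pool, with a mean of -1.14 ± 0.54 (SD, n = 4), or 2.20-fold lower (adjusted p = 0.00114). TFF1, the trefoil peptide most used as a marker of estrogen receptor activity, stood at -0.98, -1.64, -0.79 and -1.08, again below the pool in every tumor. Its mean was -1.12 ± 0.37 (adjusted p = 0.0137), its second probe gave -1.26, and its spots were near the top of the scanner's range on 2 day 7 arrays, where a ratio can be compressed. Both trefoil genes lie close together on chromosome 21 (GRCh38.p14, TFF3 at chr21:42311667-42315409 and TFF1 at chr21:42362282-42366535).

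AREG, an epidermal growth factor family ligand, stood at -0.45, -0.67, -0.41 and -1.27 (mean -0.70 ± 0.40, adjusted p = 0.0421). Replicate 4 was lowest over both orientations, but on the dye-swap arrays alone replicate 2 was lower (-1.10 against -0.88). NELL2, a secreted glycoprotein, stood at -0.21, -1.56, -1.26 and -1.30 (mean -1.08 ± 0.60, adjusted p = 0.0130), with replicate 1 apart from the other tumors. EGR3, an immediate early zinc finger factor that E2 induces directly, showed the same order with -0.16, -1.13, -0.71 and -0.86 (mean -0.71 ± 0.41, adjusted p = 0.0394). In both genes the fall was thus small in replicate 1 and clear in the other 3 tumors. B4GALT1, a galactosyltransferase of the Golgi, was called on all 3 of its probes, with probe means from -0.78 to -0.65. Its brightest probe stood at -0.48, -0.94, -0.60 and -0.58 (adjusted p = 0.00101). MYBL1, a MYB-type transcription factor, was called on both probes (-0.66 and -0.51), and OLFM1, a secreted olfactomedin, on 3 of 5 probes (-0.52 to -0.34 over the 5).

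Other E2-induced genes did not pass at day 7. PDZK1, a scaffold protein with PDZ domains, had -0.33, -0.94, -0.74 and -1.21, below the pool in every tumor (mean -0.80 ± 0.37, adjusted p = 0.140). MYB, the leukemia-linked relative of MYBL1, had 0.24, -0.21, -0.02 and -0.39 and a mean near 0 (-0.10 ± 0.27, adjusted p = 0.855), and MYBL2 had a mean of -0.18 ± 0.21. Replicate 1 was the only tumor above the pool for MYB. Of 5 named genes that E2 is known to repress, all 5 were above the pool in every tumor, beside 11.5% of all probes. All 5 were in the study's set 6, formed on these same arrays from probes that rise, so their direction is a description. In that set 57.6% of the probes were above the pool in all 4 tumors. Of the 5 genes, 1 was called higher, against 24 of 9912 probes (0.242%). That gene was BIK, a pro-apoptotic protein of the BH3-only class, with 0.34, 0.88, 0.46 and 0.56 (mean 0.56 ± 0.23, adjusted p = 0.0332). BAMBI, a pseudoreceptor of the transforming growth factor pathway, had 0.02, 1.02, 0.62 and 0.40 (adjusted p = 0.0776), and the receptor gene ERBB2 had 0.44, 0.53, 0.27 and 0.33 (adjusted p = 0.202). On the dye-swap arrays alone ERBB2 had 0.05, 0.20, -0.06 and -0.20, so its place above the pool rests on the forward arrays.

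ALB and SERPINA6, the called genes with the lowest means, encode plasma proteins that liver cells make in bulk, some of which estrogen receptor-positive breast cancer cells also express. Of 5 named genes on the list of serpins and liver-type secreted proteins, 3 were called lower and 0 higher (median -1.34), beside 0.494% of all probes called lower. These 3 were in the study's set 5, formed on these same arrays from probes that fall, where 22 of 60 were called lower. SERPINA1 and SERPINA6 were among the 11 E2-induced genes as well. ALB, which encodes serum albumin, stood at -3.24, -5.14, -1.38 and -1.67, so that the falls of replicates 1 and 2 were far deeper than those of replicates 3 and 4, which share a mouse. Its mean was -2.86 ± 1.73, or 7.24-fold lower (adjusted p = 0.0281), and without replicate 2 the fitted mean was -2.10 with an adjusted p of 0.239. SERPINA6, which encodes the corticosteroid-binding globulin, stood at -0.70, -3.19, -1.30 and -1.54 (mean -1.68 ± 1.07, adjusted p = 0.0115), with -1.71 on its second probe. SERPINA1, the elastase inhibitor alpha-1-antitrypsin, stood at -0.67, -2.65, -0.88 and -1.15 (mean -1.34 ± 0.90, adjusted p = 0.0182). Both were lowest in replicate 2 and highest in replicate 1. SERPINA4, a serpin that binds tissue kallikrein, had -0.34, -1.46, -0.89 and -0.14 and was not called (mean -0.71 ± 0.59, adjusted p = 0.109). Its value in replicate 3 rests on the dye-swap array alone and that in replicate 4 on the forward array alone, so a dye effect is not averaged out there.

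SERPINA6 and SERPINA1 lie in 1 serpin cluster (GRCh38.p14, chr14:94304248-94323336 and chr14:94376747-94390635). Their promoters are shown since both genes fell in all 4 tumors, beside that of PBXIP1, whose product binds the estrogen receptor and which rose. Each run is the 250 bases before the RefSeq gene start, all on the minus strand (SERPINA6 at chr14:94323337-94323586, SERPINA1 at chr14:94390636-94390885, PBXIP1 at chr1:154956100-154956349). Capitals mark GGTCA or its reverse complement TGACC, the repeated core of the estrogen response element.
SERPINA6: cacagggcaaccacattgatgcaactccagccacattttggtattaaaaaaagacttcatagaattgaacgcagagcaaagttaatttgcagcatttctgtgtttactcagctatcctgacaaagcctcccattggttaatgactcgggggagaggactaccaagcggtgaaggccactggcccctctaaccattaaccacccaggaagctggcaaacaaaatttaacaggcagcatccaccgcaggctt
SERPINA1: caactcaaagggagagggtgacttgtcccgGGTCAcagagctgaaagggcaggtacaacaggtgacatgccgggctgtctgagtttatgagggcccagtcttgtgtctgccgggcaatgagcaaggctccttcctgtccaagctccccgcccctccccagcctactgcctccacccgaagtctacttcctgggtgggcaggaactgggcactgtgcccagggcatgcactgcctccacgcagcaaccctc
PBXIP1: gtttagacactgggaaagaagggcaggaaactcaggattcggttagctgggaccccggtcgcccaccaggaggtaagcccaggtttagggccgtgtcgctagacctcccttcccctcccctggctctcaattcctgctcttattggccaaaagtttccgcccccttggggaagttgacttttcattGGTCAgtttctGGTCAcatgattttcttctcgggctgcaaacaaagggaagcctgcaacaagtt
On either strand, the core was in 5 of the 16 promoters found for genes called lower (31.2%), in 2 of the 7 for genes called higher (28.6%) and in 33.1% of all 27305 promoters. The full palindrome GGTCANNNTGACC was in 0 of these 23 windows and in 0.0439% of all promoters. A match is a description of these letters, not of binding.

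Of 3 named binding proteins of the IGF axis, 1 was called. IGFBP4, an inhibitory binding protein of insulin-like growth factors that E2 induces, stood at -0.36, -3.30, -1.32 and -1.51 in replicates 1 to 4. Its mean was -1.62 ± 1.23, or 3.08-fold lower (adjusted p = 0.0337), and its second probe gave -1.62. Without replicate 2 the fitted mean was -1.07 and the adjusted p 0.258. IGFBP5, another binding protein of the family, ran the opposite way with 0.43, 3.41, 1.40 and 0.60, above the pool in every tumor. It had the highest mean of all probes (1.46 ± 1.36, or 2.75-fold), yet its adjusted p was 0.0556 and its 3 probes gave 1.30 to 1.46, none of them called. Without replicate 2 its fitted mean was 0.81 (adjusted p = 0.325), and without replicate 1 it was called (adjusted p = 0.0445). Replicate 2 thus held the most extreme value of both genes, in opposite directions. The receptor IGF1R and the adaptor IRS1, both E2-responsive, had means of -0.06 ± 0.26 and -0.20 ± 0.24, with replicate 1 above the pool in both (0.31 and 0.08). Of 6 named genes on the insulin and IGF list, 1 was called lower and 0 higher (median 0.09).

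Mitotic genes were called lower at day 7 at a share near that of all named genes (25 of 253). Of 19 named mitotic genes on a list of 45, 2 were called lower and 0 higher, 12 were below the pool in all 4 tumors, and the median was -0.24, beside 0.494% of all probes called lower and 11.5% below the pool in all 4. The median of these genes was -0.31, -0.21, -0.30 and -0.05 in replicates 1 to 4, so replicate 4 stood closest to the pool. CKS2, a subunit that binds cyclin-dependent kinases, stood at -0.44, -0.47, -0.78 and -0.52 (mean -0.55 ± 0.16, adjusted p = 0.0282), with -0.57 on a second probe that was not called. NEK2, a kinase of the centrosome, stood at -0.54, -0.37, -0.38 and -0.23 (mean -0.38 ± 0.13, adjusted p = 0.0282), again with 1 of 2 probes called. Over both orientations, both genes were below the pool in every tumor, and neither was lowest in replicate 2. The fall of CKS2 lay mostly on the forward arrays (-0.96, -0.75, -1.11 and -1.02). Its dye-swap arrays gave 0.08, -0.20, -0.45 and -0.02, and the cause was not tested.

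The other mitotic genes had small ratios. CDKN3, a phosphatase of cyclin-dependent kinases, had -0.55, -0.30, -0.44 and -0.36 (adjusted p = 0.0556), and AURKA, the Aurora A kinase, had -0.27 with an SD of 0.05 (adjusted p = 0.118). CCNA2, which encodes cyclin A2, had -0.32, -0.29, -0.52 and 0.00 (adjusted p = 0.266). Means lay between -0.28 and -0.11 for PRC1, TACC3, DLG7, ZWINT, BUB1B, CDC25B, UBE2C and STMN1, none of which was called. MKI67, which encodes the proliferation antigen Ki-67, had -0.15, 0.06, -0.18 and 0.18, so that its tumors lay on both sides of the pool (mean -0.02 ± 0.17, adjusted p = 0.971). CENPF, a kinetochore protein, also straddled it, with -0.20, 0.25, -0.10 and 0.17.

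Of 12 named genes for DNA replication and nucleotide supply, 0 were called in either direction, 7 were below the pool in all 4 tumors and the median was -0.22. Over all probes 11.5% were below the pool in all 4. KIAA0101, a factor that binds the sliding clamp PCNA, had -0.64, -0.61, -0.45 and -0.19 (adjusted p = 0.0556). The minichromosome maintenance genes MCM6 and MCM2, parts of the replicative helicase, had means of -0.34 ± 0.06 and -0.22 ± 0.13 (adjusted p = 0.0900 and 0.353). RRM2, part of the enzyme that makes deoxyribonucleotides, had -0.31, -0.23, -0.30 and -0.23, a narrow range just below the pool (adjusted p = 0.103). Of the 12 genes, 5 had tumors on both sides of the pool.

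The other genes called lower had mixed roles. CLN8, a transmembrane protein of the endoplasmic reticulum, stood at -0.98, -2.79, -0.76 and -1.10 (mean -1.41 ± 0.93, adjusted p = 0.0115), with replicate 2 far below the others. ATP5D (now ATP5F1D), the delta subunit of the mitochondrial ATP synthase, stood at -0.77, -1.29, -0.87 and -0.99, the most even of the 10 largest falls (mean -0.98 ± 0.23, adjusted p = 0.00101). TUBA8, an alpha tubulin, stood at -0.71, -0.87, -0.22 and -1.05 (adjusted p = 0.0332). In both CLN8 and TUBA8 replicate 3 was the tumor nearest to the pool.

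Several transporters and membrane proteins were among them. SLC16A1, which carries lactate and other monocarboxylates, stood at -0.79, -0.50, -0.58 and -0.25 (adjusted p = 0.0343). It was 1 of 10 named genes on the hypoxia and glycolysis list called lower, with 0 called higher and a median of -0.03. SLC1A1, a glutamate transporter, had a mean of -0.69 ± 0.14 (adjusted p = 0.0187), and STOM, the membrane protein stomatin, had -0.08, -0.54, -0.83 and -0.65 (adjusted p = 0.0388). ELOVL5, an elongase of polyunsaturated fatty acids, was called on both probes, with -0.39, -0.59, -0.49 and -0.33 on the brighter (adjusted p = 0.0274), as the only called gene of 9 on the list for cholesterol and fatty acid synthesis. FKBP5, an immunophilin of steroid receptor complexes, stood at -0.90, -0.35, -0.40 and -0.96 (adjusted p = 0.0417). In replicate 2 its forward array gave 0.53 and its dye-swap array -1.24, so the order of the tumors is not settled. GNG4, a G protein gamma subunit, stood at -0.04, -0.97, -0.71 and -0.91 (adjusted p = 0.0445), with replicate 1 at the level of the pool. PHLDA2, an imprinted growth regulator, and LAMA3, a chain of the basement membrane laminin of epithelia, both had a mean of -0.52 ± 0.14 (adjusted p = 0.0207 and 0.0417).

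The genes called higher moved by less than those called lower. IER3, an immediate early gene linked to cell survival, led them with 0.64, 1.21, 0.87 and 0.77. Every tumor lay above the pool, the mean was 0.87 ± 0.24 or 1.83-fold (adjusted p = 0.0332), and its second probe was called as well with 0.84. Of 8 named immediate early genes, IER3 was thus called higher and EGR3 lower, and the median was 0.03. PHLDA1 and DUSP4, a pleckstrin homology protein and a phosphatase of MAP kinases, both peaked in replicate 2 (1.27 and 1.20), with means of 0.53 ± 0.51 and 0.60 ± 0.57 that did not pass (adjusted p = 0.147 and 0.346). BTG2, an antiproliferative gene, had a mean of -0.13 ± 0.26.

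CLU, which encodes the secreted chaperone clusterin, had the smallest adjusted p of the genes called higher, with 0.63, 0.53, 0.77 and 0.36 (mean 0.57 ± 0.18, adjusted p = 0.00585). Its highest tumor was replicate 3, and it was among the 6 genes called without replicate 2. Of 11 named genes for apoptosis and cell stress, 2 were called higher (CLU and BIK) and 1 lower (PHLDA2). Of the 11, 7 were above the pool in all 4 tumors and the median was 0.30. Over all probes 0.242% were called higher, 0.494% lower, and 11.5% lay above the pool in all 4. All but PHLDA2 were in the study's set 6, formed on these same arrays, where 57.6% of probes lay above the pool in all 4 tumors. TXNIP, an inhibitor of thioredoxin that responds to glucose, had 0.31, 0.70, 0.48 and 0.07 (adjusted p = 0.147).

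Other genes called higher encode membrane proteins. ATP8A1 and ATP9A, which belong to the phospholipid-moving P4-ATPases, stood at 0.40, 0.90, 0.62 and 0.77 and at 0.26, 0.97, 0.61 and 0.47 (adjusted p = 0.0343 and 0.0281). PPAP2C (now PLPP2), a lipid phosphate phosphatase, stood at 0.18, 0.81, 0.51 and 0.48 (adjusted p = 0.0417). All 3 were highest in replicate 2 and lowest in replicate 1. PRSS8, the membrane-bound protease prostasin, stood at 0.30, 0.80, 0.54 and 0.29 (adjusted p = 0.0379), and SPINT1, a Kunitz inhibitor of such proteases, stood at 0.46, 0.44, 0.36 and 0.30 (adjusted p = 0.0332). SPINT1 had the narrowest range of the 38 called genes, while ITGB4, the integrin chain of hemidesmosomes, ran from 0.19 to 0.62 (adjusted p = 0.0445). On the dye-swap arrays alone ITGB4 had 0.02, 0.29, -0.25 and 0.12, against 0.51 to 0.95 on the forward arrays.

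Of 16 named genes for cell junction and adhesion, 3 were called higher (SPINT1, PRSS8 and ITGB4) and 1 lower (LAMA3), with a median of 0.20. Over all probes 0.242% were called higher and 0.494% lower. CLDN4, a tight junction claudin, had 0.44, 0.67, 0.47 and 0.45 with 3 probes at 0.48 to 0.51, none of them called (adjusted p = 0.0655). These probes ran from 0.80 to 1.16 on the forward arrays and from -0.35 to 0.31 on the dye-swap arrays. Its place above the pool thus rests on the forward arrays. CHD3, a chromatin remodeler, stood at 0.43, 0.71, 0.27 and 0.65 (adjusted p = 0.0281). Its dye-swap arrays alone gave -0.01, 0.36, -0.15 and 0.22. PBXIP1, which binds the estrogen receptor, stood at 0.53, 0.53, 0.35 and 0.31 (adjusted p = 0.0282), above the pool by similar amounts in all tumors. CTSF, the lysosomal cathepsin F, stood at 0.62, 0.73, 0.36 and 0.08, with 1 of 2 probes called (adjusted p = 0.0332) and replicate 4 near the pool.

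Receptors of the ERBB family, which pass growth signals beside the estrogen receptor, did not pass. ERBB3 had 0.03, 0.28, 0.26 and 0.34 (adjusted p = 0.427), and the adaptor GRB7, a neighbor of ERBB2 on chromosome 17, had 0.26, 0.80, 0.29 and 0.15 (adjusted p = 0.128). Of 5 named ERBB genes, AREG was called lower and 0 were called higher. STC1, the hormone stanniocalcin 1, had one of the highest means, with 0.36, 1.64, 1.22 and 0.41 (0.91 ± 0.63, adjusted p = 0.0900). RAB31, a small GTPase of vesicle traffic, had the widest spread after IGFBP5 among the uncalled genes, from 0.73 in replicate 1 to -1.81 in replicate 2.

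Marker lists of other cell types had few named members. Of 7 named luminal markers, TFF1 and TFF3 were called lower and 0 were called higher, 3 were below and 3 above the pool in all 4 tumors, and the probes of all 7 had signals at least 3.66 times the background on day 7 arrays. MUC1, the luminal surface mucin, had -0.60, -0.30, -0.60 and -0.25 (mean -0.44 ± 0.19, adjusted p = 0.234). Of 3 named matrix genes, FN1, LGALS1 and MGP, 0 were called, with means from -0.28 to -0.15. The muscle gene MB, which encodes myoglobin, had 0.27, 0.55, 0.39 and 0.19 (adjusted p = 0.0776). No probe of the lists for endothelium, macrophages and leukocytes, or adipocytes carried a name, so the share of host tissue in each tumor was not tested.

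The hemoglobin probes separated replicate 3 from the other day 7 tumors. HBG1, a fetal beta-like chain, had -0.73, -0.23, 1.21 and 0.15, and the probe named for HBZ,HBA1,HBA2,HBQ1 had -0.33, -0.37, 1.10 and 0.20. Both were high in replicate 3 only, and replicate 4 from the same mouse did not share that level. Neither was called (adjusted p = 0.949 and 0.901). Their median was 0.12 at day 7, beside -0.80, -0.98, -1.13 and -1.02 at days 1, 2, 4 and 14. The difference from day 4 was 1.19 for HBG1 and 1.30 for the other probe, and neither passed (adjusted p = 0.878 and 0.861). Of 3 named mitochondrially encoded genes, 10 named RNA splicing genes and 2 named keratinocyte genes, the called ones were LAMA3 and ITGB4, in opposite directions, and list medians were -0.07, 0.15 and -0.07.

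The study sorted its named probes into 6 sets by their course over the days, on these same arrays, so the sets' directions at day 7 are a description. Sets 1 to 5 had medians of -0.27, -0.45, -0.19, -0.20 and -0.39 at day 7, and set 6 had 0.28, beside 0.00 over all probes. Probes called lower numbered 2 of 40 in set 1, 10 of 25 in set 2 and 22 of 60 in set 5, while sets 3 and 4 held 0 called probes of 24 and 25. All 16 named probes called higher were among the 159 of set 6. Over all probes 0.494% were called lower, 0.242% were called higher and 11.5% were below the pool in all 4 tumors. Set 2 was the most even: 23 of its 25 probes were below the pool in all 4 tumors, whereas this held for 7 of 24 in set 3 and 8 of 25 in set 4. In set 4 the median was -0.01 in replicate 1 and -0.38 in replicate 2.

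**Figure D4:**
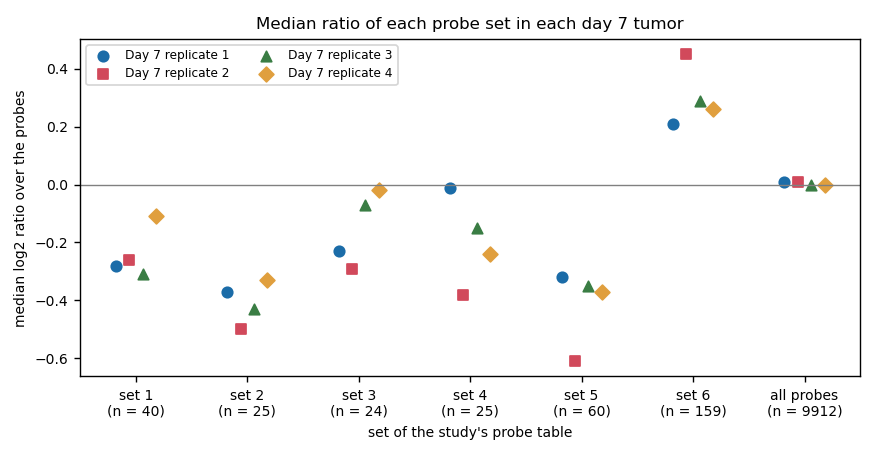
Median log2 ratio (vertical axis) of the probes in each of the study's 6 sets and of all probes, 1 marker for each day 7 tumor, with no error bars. In sets 2 to 6 replicate 2 lies farthest from 0, from -0.61 in set 5 to 0.45 in set 6, and all probes together lie at 0.00 or 0.01.

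Probes without a gene name were called too. Of 9579 such probes, 15 were called lower and 8 higher, or 0.240%. The smallest adjusted p of all probes at day 7 belonged to the unnamed probe 416833_A, with -1.04, -1.11, -1.13 and -0.75 in replicates 1 to 4 (mean -1.01 ± 0.17, adjusted p = 2.83e-06). The unnamed probe 813614_A had -0.89, -0.50, -1.15 and -0.60 (adjusted p = 0.0119). Of the unnamed probes called higher, 39466_A had the highest mean, 0.50 ± 0.25, and 221350_A the narrowest spread, 0.36 ± 0.02. That spread was smaller than in any of the 38 named genes called.

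The step from day 4 to day 7 cancels the pool, since both days were set against it. In this contrast 0 of 9912 probes were called by limma (0.00%), while 523 had an unadjusted p under 0.05. With 1 day 4 array left out, Day 4 replicate 3 rests on its forward array alone, so a dye effect is not averaged out there. TFF3 averaged -1.10 at day 4 and -1.14 at day 7, TFF1 -1.10 and -1.12, and IGFBP4 -1.64 and -1.62. IER3 averaged 1.07 at day 4 and 0.87 at day 7. The difference was -0.66 ± 0.79 (SE, adjusted p = 0.963) for ALB and 0.54 ± 0.48 for IGFBP5 (adjusted p = 0.934). Against the mean of days 1, 2, 4 and 14, again 0 probes were called (0.00%), with 397 at an unadjusted p under 0.05.

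Between day 7 and day 14, 8 probes were called higher at day 14 and 0 lower (0.0807% of all probes), with 763 at an unadjusted p under 0.05. Day 14 rests on 2 tumors of 2 mice. PSCA, a membrane-anchored antigen of secretory epithelia, was near the pool at day 7 with 0.34, 0.28, -0.09 and -0.18 and stood at 3.11 and 3.67 at day 14. The difference was 3.30 ± 0.22 (SE, adjusted p = 3.32e-07), with no overlap between the days. CAPS, the calcium-binding protein calcyphosine, rose from 0.40, 0.40, 0.17 and 0.21 to 1.30 and 1.86, a difference of 1.28 ± 0.17 (adjusted p = 0.00269).

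FOXJ1, the transcription factor that drives the making of motile cilia, stood at 1.03, 0.22, 0.53 and 0.70 at day 7 and at 1.78 and 2.96 at day 14. The difference was 1.75 on both of its probes (adjusted p = 0.0410 and 0.00394), and at day 7 itself it was not called (adjusted p = 0.147). UNG2 was the 1 gene called both at day 7 (0.25, 0.57, 0.44 and 0.46) and in the step to day 14 (1.41 and 1.72), a difference of 1.13 ± 0.16 (adjusted p = 0.00269). That symbol has stood for different genes, so no role is given. The list of motile cilia and secretory genes holds it among its 12 named genes, of which no other was called at day 7 (median 0.26).

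PIP, a secreted protein of apocrine glands that prolactin induces, went from 0.06, 0.94, 0.69 and 0.38 to 1.79 and 2.42 (difference 1.59 ± 0.27, adjusted p = 0.0337). MUC1 changed side, from below the pool in all 4 tumors of day 7 to 0.98 and 1.06 at day 14 (difference 1.46 ± 0.26, adjusted p = 0.0341). The eighth call was the unnamed probe 1440913_A, with a difference of 1.55 (adjusted p = 0.00269). TFF3 and TFF1 averaged -1.94 and -2.11 at day 14, but neither difference from day 7 passed (-0.80 with an adjusted p of 0.355 and -0.99 with 0.404). Without Day 14 replicate 2, 1 probe was called in this step, and without Day 7 replicate 2, 19 were. The PSCA difference passed under all 28 settings tried, that of PIP under 15, that of MUC1 under 16 and those of the FOXJ1 probes under 16 and 25.

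**Figure D5:**
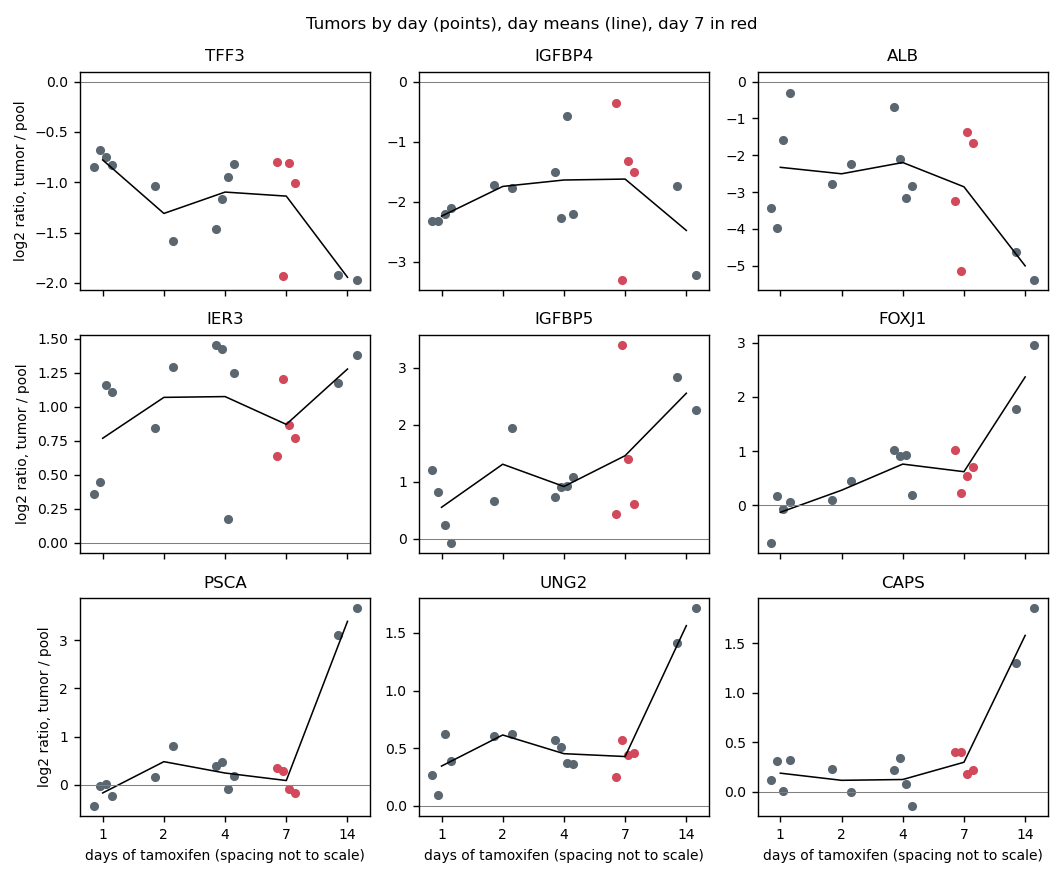
Log2 ratio over the pool (vertical axes, scales differ) of 9 genes in each tumor by day of tamoxifen (horizontal axis, spacing not to scale), with a line through the day means and day 7 in red. TFF3 and IGFBP4 have day 7 means near those of day 4 (-1.14 and -1.10, -1.62 and -1.64), while PSCA, UNG2 and CAPS reach at most 0.57 in the day 7 tumors and at least 1.30 in both day 14 tumors.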

How the data were processed

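Each of 32 two-colour cDNA arrays carried 9912 probes. The scanner files hold the spot and background intensity of both channels as deposited by the authors, not normalized. The authors' value table holds log2 ratios and served as an alternative. Its normalization could be matched to the scanner values only in part. At day 7, r with the array's own file was 0.683 to 0.988 in size, apart from the forward array of replicate 4. The column of that array did not match its file (r of 0.217 in size). Per the labels, limma was used upstream, in a version not given in the sources used here.

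Here limma 3.58.1 and statmod 1.5.0 in R 4.3.3 were applied. Spots with the mark 0 were left out, background was corrected by normexp with an offset of 50, and ratios were normalized by loess within and quantiles between arrays. Each dye-swap pair gave 1 mean, or the value of 1 array where the other had none. All days entered 1 fit (31 arrays, 16 tumors, 12 mice) with a mean per day, the mouse as a random block (estimated correlation 0.0206, prior df 6.28) and Benjamini-Hochberg adjustment over all probes. Printed means and SDs are over tumors, while adjusted p-values and standard errors come from the fit, whose blocked means differ slightly. The test against the pool leaves out the pool's own spread. The p-values measure the spread between tumors pooled over all days, not that of day 7 alone. Tumors that share a mouse stand in days 1 (4 tumors of 2 mice), 4 (4 of 3) and 7 (4 of 3). The number of arrays limits the precision. The fit was tested on simulated data.

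A gene was represented by the brightest of its named probes. Of 253 symbols, 217 were current, 33 older and 3 unmatched. Named are the 10 largest called falls and rises, up to 4 members per gene list by adjusted p, the 6 widest spreads, genes called between days and genes that the study's text names. SLC1A1, FKBP5, GNG4, STOM, MYBL1 and OLFM1 were added after their values were seen, as were the unnamed probes. Lists covered the cell cycle, hormone response, metabolism, signalling, stress, secreted proteins, junctions, splicing, mitochondria, hemoglobin and markers of other cell types. Members and lists were chosen with earlier results of these data known. Promoters and positions are from RefSeq (GRCh38.p14), with promoters for 16 of 25 genes called lower and 7 of 13 called higher. Alternatives changed the background correction, normalization, spots, block, arrays, tumors and threshold.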

Additional observations from a re-analysis of the deposited data

Results flagged for a closer look

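In 4 of 98 genes tested for a tumor that stands apart, 1 tumor's gap to its neighbor took up more of the range of the 4 tumors than Dixon's limit allows, and in each it was replicate 2. The gap was 0.832 of the range in CLN8, 0.874 in LPIN2, 0.874 in CLDN4 and 0.914 in OLFM1. Chance marks about 1 in 20 groups.

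The step from day 7 to day 14 differed beyond the adjusted threshold in 8 probes. The differences were 1.13 for UNG2, 1.28 for CAPS, 1.46 for MUC1, 1.55 for the unnamed probe 1440913_A, 1.59 for PIP, 1.75 for each probe of FOXJ1 and 3.30 for PSCA.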

How the results depend on the processing

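At day 7, 49 probes were called lower and 24 higher. The counts were 80 and 56 with no background correction, 13 and 1 with 1 mean per mouse, 135 and 115 with single arrays and a dye term, 544 and 500 with forward arrays only, 0 and 0 with the authors' value table, 68 and 42 with that table but without the forward column of replicate 4, and 128 and 99 with array weights. They were 1 and 0 with the array titled Day 4 replicate 4 dyeswap as labelled, 5 and 1 without both tumors of the mouse that gave 2, 31 and 17 without the forward array of replicate 4, 3 and 0 in a fit of day 7 alone (no mouse block could be estimated), 34 and 12 with median centring, 38 and 15 with a change of at least 1.5-fold and p up to 0.05 before adjustment, and 82 and 54 at an adjusted p under 0.10. Leaving out 1 day 7 tumor gave 11 to 19 and 2 to 10. The other settings stayed within 1.5 times in both directions, and the filter on dim probes removed none. Similar counts need not be the same probes. With dye-swap arrays only, 72 and 31 probes were called, but these held 31 of the 73 called in the main fit. Of the 38 genes, 16 stayed called and 22 did not. The means on the dye-swap arrays were 0.10 for CHD3, 0.05 for ITGB4 and -0.15 for CKS2. The cause was not tested.

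Replicate numbers name different mice on different days, so they pair no samples. A replicate block gave 45 and 22 calls at day 7, kept 24 of the 38 called genes, and gave 1 call between days 4 and 7 and 7 between days 7 and 14.

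Between days 4 and 7, 0 probes were called, and 0 to 1 without a day 4 tumor. Day 7 against the mean of the other days gave 1 call with no background correction, plain subtraction, single arrays or array weights. Between days 7 and 14, 8 probes were called, against 5 with 1 mean per mouse, 105 with single arrays, 13 with the table, 14 with the table without that column, 117 with array weights, 5 with the day 4 array as labelled, 2 without the mouse that gave 2 tumors, 5 to 19 without a day 7 tumor, 5 to 10 without a day 4 tumor and 1 to 11 without a day 14 tumor.

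None of the 38 called genes changed sign at day 7. Uncalled genes did. With forward arrays only, the means were MCM2 0.01, EGLN2 0.23, IRS1 0.06, HBZ,HBA1,HBA2,HBQ1 -0.24, HBG1 -0.09, THOC4 0.09, CENPF -0.21, MKI67 0.01, BTG2 0.04, MYBL2 0.13 and CELSR1 0.23. With dye-swap arrays only, they were ERBB2 -0.0026, MTCYB 0.07, MTND5 0.26, MTND1 0.16, CLDN4 -0.06, SRRM2 -0.07, PSCA -0.02, BUB1B 0.06, STMN1 0.16, UBE2C 0.10 and MYB 0.05. The hemoglobin probes HBZ,HBA1,HBA2,HBQ1 and HBG1 gave -0.02 and -0.10 with 1 mean per mouse, -0.35 and -0.48 without the mouse that gave 2 tumors, and -0.17 and -0.27 without replicate 3. Without that mouse, MTCYB gave 0.05, MTND1 0.09, MYB 0.01 and IGF1R 0.07. MTCYB, MTND5 and MTND1 gave 0.07, 0.07 and 0.03 with the table, and 0.01, 0.02 and 0.07 with the replicate block, where CENPF gave -0.00098. MTND5 and MTND1 gave 0.01 and 0.03 with the table without the replicate 4 column, and 0.01 and 0.02 without that tumor's forward array. Without replicate 3, MTCYB gave 0.03, MTND1 0.04 and MKI67 0.03. Without replicate 2, RAB31 gave 0.02 and CENPF -0.04. Without replicate 4, CENPF gave -0.02, MYB 0.0034 and IGF1R 0.03. MKI67 gave 0.03 with median centring and 0.02 without replicate 1. Without 1 tumor in turn, the values ran up to 0.33 for HBZ,HBA1,HBA2,HBQ1, 0.37 for HBG1 and 0.11 for CENPF, and down to -0.11 for MTCYB, -0.82 for RAB31 and -0.18 for IGF1R. All values in this paragraph are log2 ratios against the pool.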
